A study of Mus musculus with 30 samples.

Results

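Neuropeptides are short signalling peptides that neurons cut out of larger precursor proteins, and granins are the acidic proteins that are packed with them into dense-core vesicles. This account follows 10 such genes, Nts, Cck, Gal, Npy, Tac1, Adcyap1, Penk, Vgf, Scg2 and Chgb, in mouse retinal ganglion cells, the output neurons of the retina, whose axons run in the optic nerve. The members were chosen by symbol, and all 10 were found among the 24033 gene symbols used and among the 16621 genes with enough reads to be tested. RNA was sequenced from 30 libraries of retinal cells, 3 in each of 10 groups. All animals carried LSL-Cas9-GFP and Vglut2-Cre, so Cas9 depends on Vglut2, a glutamate transporter gene that is active in retinal ganglion cells but not in them alone. All were injected into the vitreous with AAV2. The virus brought sgRNAs against Ssrp1, a subunit of the histone chaperone FACT, in the SSRP1KO groups, and non-targeting sgRNAs in the NT groups. Each sgRNA was sampled at 5 times, first in animals whose optic nerve was left intact (no crush), then at 1, 2, 3 and 4 dpc, that is, days after the nerve was crushed. Live cells were sorted on CD90.2, GFP, the mCherry carried with the sgRNAs, or a combination, so a sorted cell need not have been edited. The sources used here state neither age nor sex, nor whether a group's 3 libraries were 3 animals. The spread behind each p-value is therefore that of libraries, and how much of it is technical is not known. Within some groups, such as NT 2 dpc, the libraries differed in sex-linked RNA (values below), so those were not all repeats of 1 animal.

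A neuropeptide precursor enters the secretory pathway, is trimmed by prohormone convertases and carboxypeptidase E inside the maturing vesicle, and is released on calcium entry, often away from synapses. Its peptides act on G protein-coupled receptors, and granins help to sort and condense the cargo. In other injured neurons, such as sensory neurons of the mouse and rat with a cut peripheral axon, galanin, neuropeptide Y and PACAP are classic genes that rise after axotomy.

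The libraries held 9715972 to 34420978 counts on genes, with 15281 to 18504 genes detected, so a count of 0 allows up to 0.309 CPM in the shallowest and 0.0872 CPM in the deepest library (3 counts; counting error only). Levels are given in CPM, a gene's count relative to the TMM-scaled size of its library, and Ssrp1 itself stood at 26.9 to 66.9 CPM in SSRP1KO libraries, against 36.1 to 102 CPM in NT libraries. These ranges overlap through SSRP1KO no crush replicate 3, at 66.9 CPM, and NT 2 dpc replicate 3, at 36.1 CPM and the shallowest of all. SSRP1KO 2 dpc replicate 5 stood apart, with a mean Spearman correlation of 0.932 with its group, against at least 0.951 for the other 29. These 3 libraries are called the libraries in doubt. The summed level of 11 ganglion cell markers, none of them at 0, was 6916 to 7949 CPM in SSRP1KO no crush libraries, against 9871 to 11253 CPM in NT no crush libraries. At 4 dpc it was 4899.9 to 5272 CPM in SSRP1KO libraries, against 6789 to 10808 CPM in NT libraries. Markers of amacrine cells, retinal interneurons that can also make Npy, Tac1, Penk and Cck, summed to 724 to 1216 CPM in SSRP1KO no crush libraries, against 484 to 714 CPM in NT no crush libraries. Their sum at 4 dpc was 665 to 1002 CPM in SSRP1KO libraries, against 545 to 710.4 CPM in NT libraries. Of the 11 amacrine markers, Chat stayed under 1 CPM in every library and Slc18a3 was at 0 in the NT 2 dpc libraries. Microglia and macrophage markers summed to 110.5 to 353 CPM in SSRP1KO no crush libraries, against 43.8 to 75.9 CPM in NT no crush libraries. SSRP1KO 3 dpc replicate 2 had the highest photoreceptor marker sum, 3778.5 CPM, against at most 961 CPM in the other libraries, and the highest bipolar cell marker sum, 394 CPM, and without it 8 members still passed at 3 dpc in SSRP1KO cells and 1 between SSRP1KO and NT cells. Sex-linked RNA also differed between groups: Xist was at 1293 to 2608 CPM in SSRP1KO no crush libraries, against 0.364 to 190.2 CPM in NT no crush libraries, but at 2259.9 to 3236 CPM in SSRP1KO and 3023 to 4353 CPM in NT libraries at 4 dpc. At 1 dpc it was at 0.188 to 0.507 CPM in SSRP1KO and 1053 to 1686 CPM in NT libraries. At 2 dpc SSRP1KO libraries held 0.336 to 0.856 CPM, and NT libraries 0.517, 1.19 and 3836 CPM. At 3 dpc SSRP1KO libraries held 1254 to 4398 CPM, and NT libraries 892, 5.66 and 835 CPM. Some libraries held both Xist and Y-linked RNA, as NT 3 dpc replicate 1, with 176 CPM over 4 Y-linked genes. Xist thus changed along with crush in SSRP1KO cells at 1 and 2 dpc and in NT cells at 1 and 4 dpc. It differed along with the sgRNA without crush and at 1 and 3 dpc. In those contrasts sex goes together with crush or sgRNA, and only a sex score as covariate was fitted for it.

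Before any crush the 10 genes already spanned a wide range. Per kilobase of exon, in the GENCODE annotation of GRCm38, the granin genes Chgb and Scg2 led, at 281 and 246 CPM per kb in SSRP1KO no crush cells, against 366 and 310.4 CPM per kb in NT no crush cells. Penk, Cck and Tac1 came next, between 14.9 and 26.2 CPM per kb in SSRP1KO cells and between 12.9 and 47.4 CPM per kb in NT cells. Adcyap1, Gal, Vgf and Npy lay between 2.59 and 9.46 CPM per kb in SSRP1KO cells and between 1.55 and 9.94 CPM per kb in NT cells. Nts was last, at 0.0733 CPM per kb in SSRP1KO cells and 0.0108 CPM per kb in NT cells. At 4 dpc Scg2 was first in both, at 444 CPM per kb in SSRP1KO cells and 1361 CPM per kb in NT cells, and Cck had become one of the lowest, at 6.78 CPM per kb in SSRP1KO cells and 2.2 CPM per kb in NT cells.

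**Figure D1:**
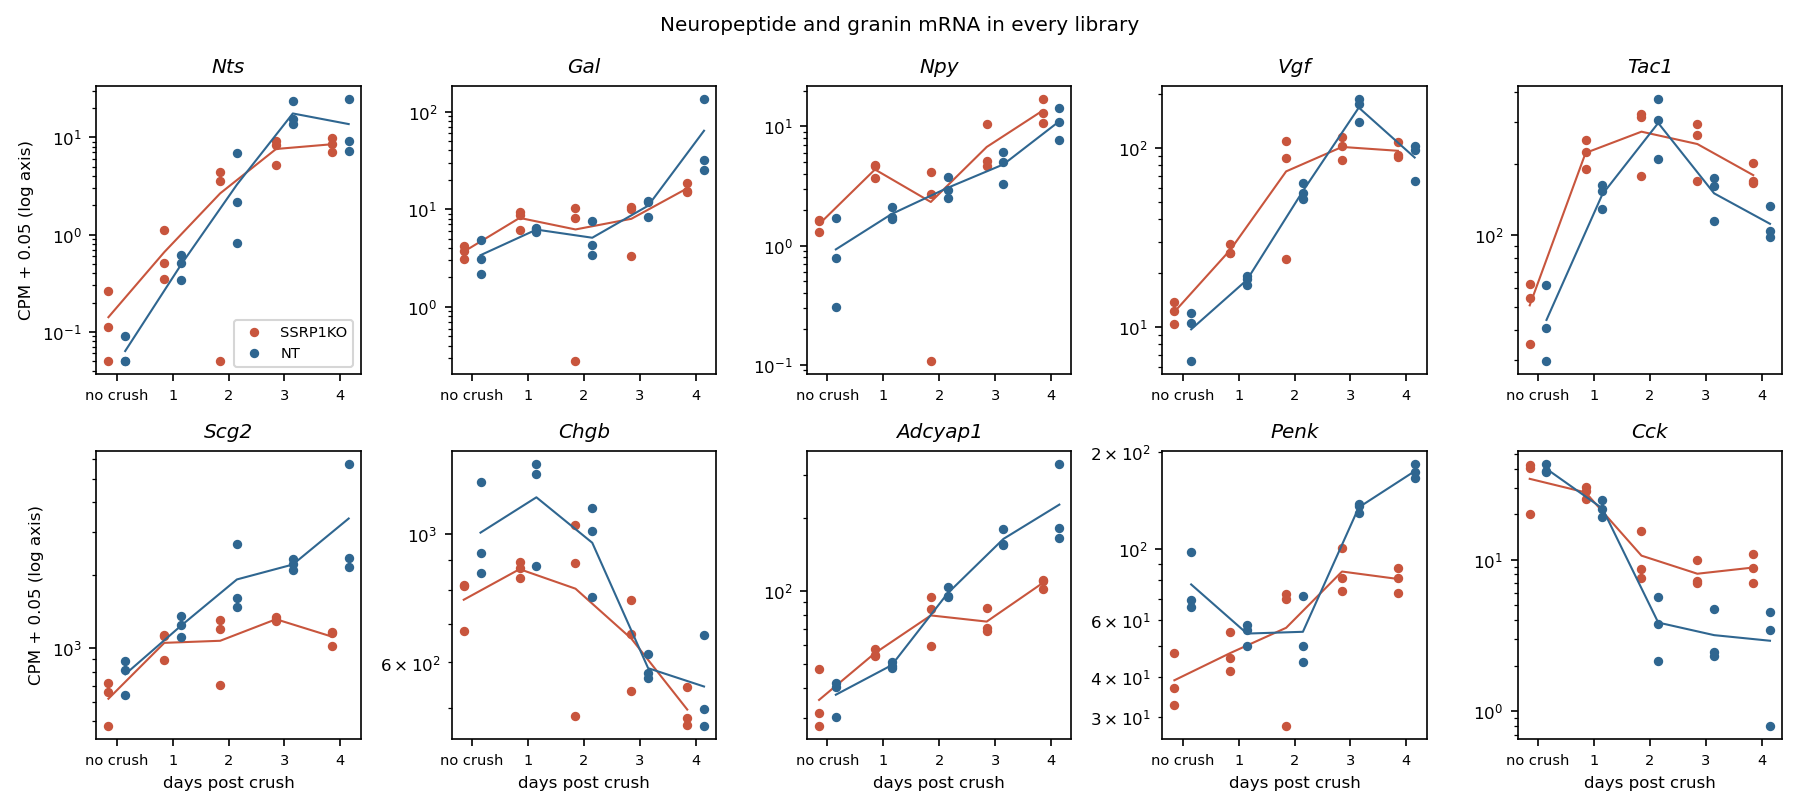
Level of each of the 10 genes (CPM + 0.05, log axis) in all 30 libraries by days post crush. Points are libraries, 3 per group, lines join group means, and SSRP1KO is drawn to the left of NT; Nts climbs from at most 5 counts per library without crush to 7.06 CPM or more at 4 dpc in all 6 libraries, while Cck falls.

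The crush response took in the whole set. By 4 dpc all 10 genes differed from no crush in SSRP1KO cells and all 10 in NT cells, in the same direction in both: Nts, Gal, Npy, Tac1, Adcyap1, Penk, Vgf and Scg2 rose, and Cck and Chgb fell (edgeR's quasi-likelihood test, Benjamini-Hochberg adjusted p under 0.05 over 16621 genes). Of all genes tested, 13.1% passed in SSRP1KO cells, 6.88% higher and 6.2% lower, and 27.2% in NT cells, 14.0% higher and 13.2% lower. The members were chosen with earlier results of these data known, so their count beside these shares is a description and not a test. With 1 library left out at a time, 7 to 9 of the 10 passed in SSRP1KO cells and 10 in NT cells. The median log2 fold change of the 10 at 4 dpc was 1.71 in SSRP1KO cells and 2.36 in NT cells, against 0.01 and 0.07 over all genes. The SSRP1KO libraries of day 4 did not overlap those without crush for any of the 10, where 31.9% of all genes showed no overlap, and the same held in NT cells, where 40.0% did. RNA here is pooled from many sorted cells, so fewer cells that make a peptide cannot be told apart from less of its RNA per cell.

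The set filled up by day. At 1 dpc, Tac1 and Vgf had passed in SSRP1KO cells (4.04% of all genes passed) and Tac1 alone in NT cells (1.86%). At 2 dpc, 6 genes passed in SSRP1KO cells (11.7% of all genes), with Nts, Tac1, Vgf, Scg2 and Adcyap1 higher and Cck lower, and 7 in NT cells (18.8%), the same 6 and Npy. At 3 dpc, 8 passed in SSRP1KO cells (14.5%), 7 higher and Cck lower, and 9 in NT cells (24.2%), the same 8 and Chgb. Gal passed at 4 dpc alone in both, as did Chgb in SSRP1KO cells. Without the 3 libraries in doubt, an alternative chosen after seeing the data, 4, 7, 8 and 10 passed in SSRP1KO cells from day 1 to day 4 and 4, 8, 10 and 10 in NT cells.

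**Figure D2:**
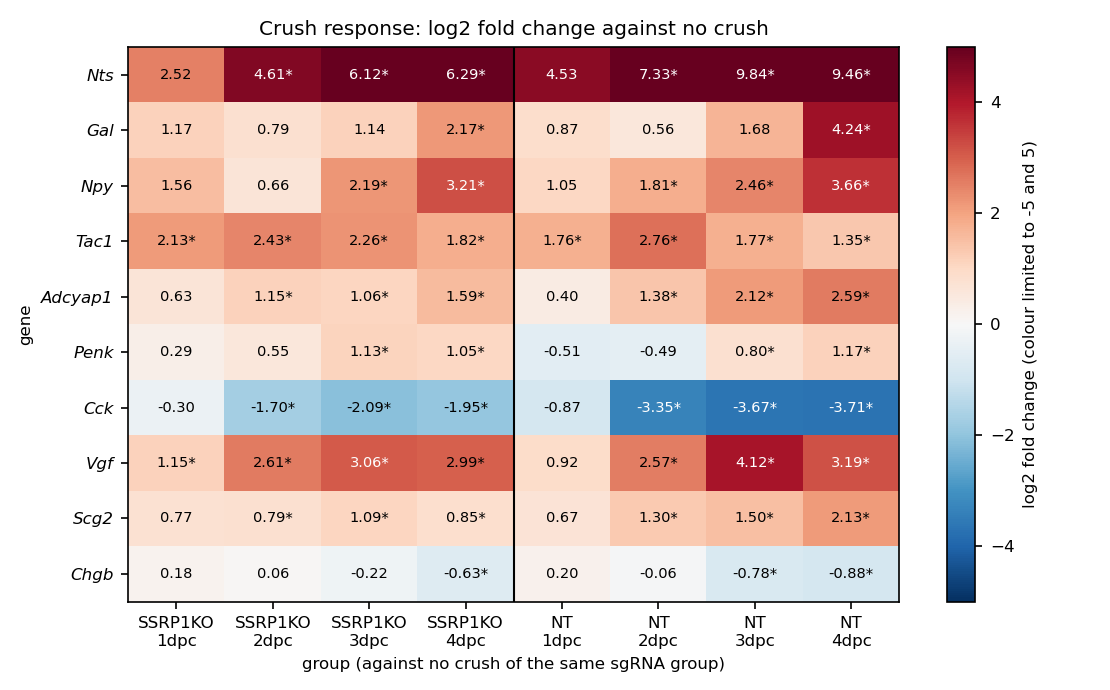
Log2 fold change of each gene at 1, 2, 3 and 4 dpc against no crush, for SSRP1KO cells on the left and NT cells on the right. An asterisk marks an adjusted p under 0.05; all 10 genes carry it in both day 4 columns, and the fitted Nts values rest on 6 SSRP1KO and 1 NT count without crush.

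Tac1 was the member that passed at 1 dpc in both SSRP1KO and NT cells. It encodes the precursor of substance P and neurokinin A (chromosome 6, 7554879 to 7565834, plus strand, GRCm38). In SSRP1KO cells it stood at 35.0, 54.5 and 62.6 CPM without crush, 225, 252 and 189.7 CPM at 1 dpc, 326, 316 and 177 CPM at 2 dpc, 294, 169 and 264 CPM at 3 dpc, and 166, 169.6 and 202 CPM at 4 dpc. The NT libraries stood at 29.5, 40.6 and 61.8 CPM without crush, 163, 129.5 and 154 CPM at 1 dpc, 307, 374.5 and 209.9 CPM at 2 dpc, 114.7, 161 and 175 CPM at 3 dpc, and 98.1, 133 and 104 CPM at 4 dpc. The mean was highest at 2 dpc in both, and at 4 dpc every library was still above every library without crush. At 1 dpc the rise was 4.39-fold in SSRP1KO cells (log2 2.13 ± 0.27 SE, adjusted p = 7.78e-06) and 3.38-fold in NT cells (log2 1.76 ± 0.27, adjusted p = 0.000153). By 4 dpc it was 3.54-fold in SSRP1KO cells (adjusted p = 1.74e-05) and 2.54-fold in NT cells (adjusted p = 0.00026). With a sex score as covariate the 1 dpc rise in SSRP1KO cells was smaller, at log2 1.46 (adjusted p = 0.0481).

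Vgf, a granin-like precursor whose peptides are released by many neurons (chromosome 5, 137026392 to 137033351, plus strand), peaked at 3 dpc. In SSRP1KO cells it lay between 10.4 and 13.7 CPM without crush, 25.8 and 28.9 CPM at 1 dpc, 23.8 and 109.7 CPM at 2 dpc, 86.0 and 116 CPM at 3 dpc, and 89.0 and 108 CPM at 4 dpc. In NT cells it lay between 6.4 and 12 CPM without crush, 17.2 and 19.2 CPM at 1 dpc, 52.1 and 64.0 CPM at 2 dpc, 140.2 and 187 CPM at 3 dpc, and 65.2 and 102 CPM at 4 dpc. The low library at 2 dpc in SSRP1KO cells is replicate 5, which stood apart. At 3 dpc Vgf was 8.35-fold higher than without crush in SSRP1KO cells (log2 3.06 ± 0.32, adjusted p = 8.45e-08) and 17.4-fold higher in NT cells (log2 4.12 ± 0.34, adjusted p = 2.18e-10). Its rise at 1 dpc in SSRP1KO cells (log2 1.15, adjusted p = 0.0287) was not called with the sex score as covariate (adjusted p = 0.319) or without any single library of those 2 groups.

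Nts, the precursor of neurotensin (chromosome 10, 102481756 to 102490486, minus strand), was near absent without crush and then climbed furthest. In SSRP1KO cells its counts were 5, 1 and 0 without crush, 30, 11 and 8 at 1 dpc, 111, 124 and 0 at 2 dpc, 250, 212 and 160 at 3 dpc, and 309, 173 and 244 at 4 dpc. In NT cells its counts were 0, 1 and 0 without crush, 12, 7 and 11 at 1 dpc, 18, 51 and 61 at 2 dpc, 610, 334 and 392 at 3 dpc, and 230, 207 and 203 at 4 dpc. Every crushed library held more Nts than every uncrushed one of the same sgRNA group, except SSRP1KO 2 dpc replicate 5 with no count. The ratio of summed CPM at 4 dpc to no crush was 80.2 in SSRP1KO cells (95% counting interval 36.7 to 219) and 758 in NT cells (136 to 29996), and the second rests on the single NT count. Nts passed from 2 dpc on in both, with adjusted p = 8.68e-05 at 4 dpc in SSRP1KO cells and 1.27e-06 in NT cells. The size of the fitted change depends on a single uncrushed library, since it was log2 7.89 in place of 6.29 in SSRP1KO cells without no crush replicate 1, and log2 11.33 in place of 9.46 in NT cells without no crush replicate 2. The mean at 4 dpc was 8.42 ± 1.31 CPM in SSRP1KO cells and 13.6 ± 9.57 CPM in NT cells (SD, n = 3 each).

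Gal, the galanin precursor (chromosome 19, 3409915 to 3414544, minus strand), passed at 4 dpc alone in the main test. SSRP1KO cells had 3.07, 4.12 and 3.66 CPM without crush, 8.73, 6.12 and 9.4 CPM at 1 dpc, 8.05, 10.2 and 0.228 CPM at 2 dpc, 10, 3.27 and 10.5 CPM at 3 dpc, and 18.6, 15.2 and 15 CPM at 4 dpc. NT cells had 2.1, 3.04 and 4.84 CPM without crush, 5.82, 6.38 and 6.18 CPM at 1 dpc, 4.26, 3.36 and 7.54 CPM at 2 dpc, 12.2, 8.17 and 11.9 CPM at 3 dpc, and 134, 31.7 and 25 CPM at 4 dpc. All 6 libraries of day 4 lay above the uncrushed ones, and NT 4 dpc replicate 1 stood far above the other two of its group. At 1 dpc every library lay above its uncrushed group, but neither change passed (adjusted p = 0.339 in SSRP1KO and 0.613 in NT cells). Every NT library at 3 dpc did too, with log2 1.68 just short of the threshold (adjusted p = 0.0531). That 3 dpc change passed without SSRP1KO 2 dpc replicate 5 (0.00698) and with only those groups fitted (0.00142). It did not pass with the sex score as covariate or in DESeq2. At 4 dpc the rise was 4.51-fold in SSRP1KO cells (adjusted p = 0.0221) and 18.9-fold in NT cells (log2 4.24, adjusted p = 2.07e-05). The NT rise was log2 3.03 without NT 4 dpc replicate 1 (adjusted p = 0.000628), and the SSRP1KO rise was not called in 4 of the fits that leave out 1 library (adjusted p 0.0516 to 0.0783).

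Npy, the neuropeptide Y precursor (chromosome 6, 49822710 to 49829507, plus strand), also rose through the last day. It averaged 1.46 ± 0.2 CPM without crush, 4.3 ± 0.548 CPM at 1 dpc, 2.27 ± 2.03 CPM at 2 dpc, 6.67 ± 3.21 CPM at 3 dpc and 13.5 ± 3.14 CPM at 4 dpc in SSRP1KO cells (SD, n = 3 each). In NT cells it averaged 0.878 ± 0.708 CPM without crush, 1.79 ± 0.239 CPM at 1 dpc, 3.0 ± 0.642 CPM at 2 dpc, 4.75 ± 1.4 CPM at 3 dpc and 11 ± 3.31 CPM at 4 dpc. The large SD at 2 dpc in SSRP1KO cells comes from replicate 5, with 1 count, beside 2.68 and 4.06 CPM in the others. At 4 dpc Npy was 9.25-fold higher than without crush in SSRP1KO cells (log2 3.21 ± 0.65, adjusted p = 0.000845) and 12.6-fold higher in NT cells (log2 3.66 ± 0.67, adjusted p = 9.72e-05). The NT change at 4 dpc was log2 4.46 without NT no crush replicate 1. Npy's call at 2 dpc in NT cells (adjusted p = 0.0486) was lost in 7 alternatives (adjusted p 0.0582 to 0.198), and its call at 3 dpc in SSRP1KO cells was lost without SSRP1KO 3 dpc replicate 3 (adjusted p = 0.104) or no crush replicate 1 (0.0624).

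Adcyap1 encodes the precursor of PACAP, a peptide that intrinsically photosensitive ganglion cells carry to the brain's clock (chromosome 17, 93199017 to 93206537, plus strand). Levels in SSRP1KO cells were 47.8, 27.9 and 31.5 CPM without crush, 57.9, 54.1 and 54.8 CPM at 1 dpc, 94.5, 84.4 and 59.5 CPM at 2 dpc, 85.2, 70.6 and 68.8 CPM at 3 dpc, and 110.0, 102 and 111 CPM at 4 dpc. Levels in NT cells were 30.4, 40.4 and 41.8 CPM without crush, 49.2, 51.2 and 48.3 CPM at 1 dpc, 94.5, 103 and 95.4 CPM at 2 dpc, 179.5, 155 and 156.5 CPM at 3 dpc, and 332, 164 and 182 CPM at 4 dpc. The NT libraries climbed day by day with no overlap between neighbouring days from no crush to 3 dpc, while the SSRP1KO libraries of 2 and 3 dpc overlapped. At 4 dpc Adcyap1 was 3.01-fold higher than without crush in SSRP1KO cells (log2 1.59 ± 0.21, adjusted p = 3.84e-06) and 6.02-fold higher in NT cells (log2 2.59 ± 0.22, adjusted p = 2.79e-10). Its call at 2 dpc in SSRP1KO cells was lost with the sex score as covariate (adjusted p = 0.0839) and with only those groups fitted (0.0792). The summed level of 5 markers of photosensitive ganglion cells at 4 dpc was 158 to 194 CPM in SSRP1KO and 209.9 to 287 CPM in NT libraries. Without crush it was 192.6 to 428.5 CPM in SSRP1KO libraries, which overlaps their day 4 range at its edge (193.7 CPM), and 349 to 432 CPM in NT libraries, which does not. Of the single markers in SSRP1KO libraries, Opn4, Eomes and Tbx20 were lower at 4 dpc with no overlap, while Igf1 and Baiap3 overlapped.

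Penk, the precursor of the enkephalins (chromosome 4, 4133531 to 4138819, minus strand), first passed at 3 dpc. The SSRP1KO values were 32.7, 36.9 and 47.3 CPM without crush, 41.6, 55.0 and 45.8 CPM at 1 dpc, 69.7, 72.4 and 28.1 CPM at 2 dpc, 80.9, 73.7 and 100.4 CPM at 3 dpc, and 73.1, 87.4 and 81.2 CPM at 4 dpc. The NT values were 65.7, 69.1 and 97.6 CPM without crush, 56.0, 57.9 and 49.7 CPM at 1 dpc, 44.5, 49.7 and 71.5 CPM at 2 dpc, 129.5, 138 and 136 CPM at 3 dpc, and 174, 184 and 166 CPM at 4 dpc. The NT means were lower at 1 and 2 dpc than without crush, by log2 -0.51 and -0.49, but neither passed (adjusted p = 0.339 and 0.146), and without the 3 libraries in doubt both did. The rise at 2 dpc in SSRP1KO cells was log2 0.55 (adjusted p = 0.129), and it passed without replicate 5, the library that stood apart (log2 0.87, adjusted p = 0.00227), and without the 3 libraries in doubt (log2 1.03, adjusted p = 0.000123). At 4 dpc Penk was 2.07-fold higher than without crush in SSRP1KO cells (adjusted p = 0.00234) and 2.25-fold higher in NT cells (adjusted p = 0.00029). The 3 dpc rise in NT cells (log2 0.8, adjusted p = 0.0114) was lost in 3 of the fits that leave out 1 library (adjusted p 0.0535 to 0.0644).

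The classical granin genes Scg2 and Chgb parted after crush. Scg2 encodes secretogranin II, the source of secretoneurin (chromosome 1, 79434669 to 79440120, minus strand), and Chgb encodes chromogranin B (chromosome 2, 132781278 to 132795079, plus strand). Their promoters, taken from RefSeq (build GRCm38.p6) as 250 bases before to 50 after the start, are shown with that of Nts because Scg2 and Chgb share the full cAMP response element TGACGTCA and Nts holds an AP-1 element. Capitals mark matches to the motifs searched on both strands, which were TGACGTCA, its shorter core TGACG, the AP-1 element TGACTCA and the CHOP-ATF composite TGATGCAA. The Scg2 window is chr1:79439977-79440276 (minus strand), that of Chgb is chr2:132781392-132781691 (plus strand) and that of Nts is chr10:102490369-102490668 (minus strand), each printed 5′ to 3′ along the gene.
Scg2: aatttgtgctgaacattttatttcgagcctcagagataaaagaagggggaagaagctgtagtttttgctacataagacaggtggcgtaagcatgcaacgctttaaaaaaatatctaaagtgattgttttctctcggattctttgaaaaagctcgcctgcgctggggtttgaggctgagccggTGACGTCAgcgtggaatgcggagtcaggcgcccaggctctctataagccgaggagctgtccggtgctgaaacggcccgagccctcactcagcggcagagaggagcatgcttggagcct
Chgb: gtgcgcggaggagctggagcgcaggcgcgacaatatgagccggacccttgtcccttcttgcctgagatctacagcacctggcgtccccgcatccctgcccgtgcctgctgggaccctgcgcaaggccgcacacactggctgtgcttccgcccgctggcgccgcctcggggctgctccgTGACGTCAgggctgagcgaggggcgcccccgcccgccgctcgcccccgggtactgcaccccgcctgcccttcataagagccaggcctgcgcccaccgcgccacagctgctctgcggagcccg
Nts: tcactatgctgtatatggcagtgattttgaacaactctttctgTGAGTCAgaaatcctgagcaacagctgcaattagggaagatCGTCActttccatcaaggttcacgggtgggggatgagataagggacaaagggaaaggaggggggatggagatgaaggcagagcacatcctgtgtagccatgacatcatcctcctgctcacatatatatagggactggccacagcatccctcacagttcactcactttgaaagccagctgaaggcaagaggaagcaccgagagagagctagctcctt
The TGACGTCA of Scg2 starts 68 bases before the RefSeq start and that of Chgb 72 bases before it, and each contains the core on both strands. In Nts the match TGAGTCA, the AP-1 element on the opposite strand, starts 207 bases before the start. The RefSeq start lies 94 bases from the GENCODE gene start for Scg2, 364 bases for Chgb and 68 bases for Nts. Promoters of 8 members, 9 in all, were found in the RefSeq table. TGACGTCA was in 2 of the 8 and in 1.79% of all 32851 promoters, the core TGACG in 7 of the 8 and in 20.8% of all, the AP-1 element in 1 of the 8 and in 5.2% of all, and TGATGCAA in none of the 8 and in 0.895% of all. A match is a description of the letters and not evidence of binding.

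In SSRP1KO cells Scg2 stood at 478, 662 and 717 CPM without crush, 1137, 1124 and 896 CPM at 1 dpc, 1308, 1205 and 706 CPM at 2 dpc, 1313, 1289.9 and 1346 CPM at 3 dpc, and 1160.4, 1019.7 and 1168 CPM at 4 dpc. NT libraries held 639.8, 813 and 889 CPM without crush, 1353, 1252 and 1109 CPM at 1 dpc, 1473, 1605 and 2683 CPM at 2 dpc, 2215, 2320.3 and 2101 CPM at 3 dpc, and 5746, 2362 and 2161.5 CPM at 4 dpc. From day 1 on the SSRP1KO libraries lay between 706 and 1346 CPM, while every NT library of days 3 and 4 lay at 2101 CPM or more. At 4 dpc the rise was 1.8-fold in SSRP1KO cells (log2 0.85 ± 0.27, adjusted p = 0.0304) and 4.38-fold in NT cells (log2 2.13 ± 0.27, adjusted p = 5.42e-07). NT 4 dpc replicate 1, the high Scg2 library, held 10888302 counts, and its TMM scaling factor, 0.859, was the lowest of the 30 libraries. It also had the highest ganglion cell marker sum of its group, at 10808 CPM. The markers did not move together there. Slc17a6, Nefl (2555 CPM, against 1185 and 1207 CPM), Nefm, Stmn2, Isl1 and Pou4f2 were highest of the group in that library. Rbpms (169 CPM, against 203 and 203 CPM), Pou4f1, Pou4f3 and Thy1 were lowest in it. Without NT 4 dpc replicate 1 the NT rise was log2 1.48 (adjusted p = 8.28e-06). The SSRP1KO rise was lost in 4 of the fits that leave out 1 library at 4 dpc (adjusted p 0.0541 to 0.138), and its call at 2 dpc (adjusted p = 0.0494) in 10 alternatives (adjusted p 0.0504 to 0.213).

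Chgb went the other way. It lay between 679.9 and 815 CPM without crush, 838 and 893 CPM at 1 dpc, 484.5 and 1036 CPM at 2 dpc, 536 and 769 CPM at 3 dpc, and 469 and 544 CPM at 4 dpc in SSRP1KO cells. In NT cells it lay between 855.5 and 1229 CPM without crush, 880.1 and 1318 CPM at 1 dpc, 779 and 1105 CPM at 2 dpc, 564 and 621 CPM at 3 dpc, and 466 and 670.2 CPM at 4 dpc. At 4 dpc Chgb fell by 0.63 on the log2 scale in SSRP1KO cells (± 0.21, adjusted p = 0.0409) and by 0.88 in NT cells (± 0.21, adjusted p = 0.00164). With the sex score as covariate the fall in NT cells was 0.67 and not called (adjusted p = 0.0768), and the fall in SSRP1KO cells was lost in 5 of the fits that leave out 1 library (adjusted p 0.0642 to 0.142). Its fall at 3 dpc in NT cells (adjusted p = 0.0057) was lost without NT no crush replicate 3 (adjusted p = 0.055).

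The ratio of Scg2 to Chgb counts within a library does not depend on how libraries are scaled. It was 0.703, 0.813 and 0.881 without crush in SSRP1KO cells, against 0.748, 0.877 and 0.724 in NT cells. At 4 dpc it was 2.47, 2.12 and 2.15 in SSRP1KO cells, against 8.57, 4.73 and 4.63 in NT cells. The groups overlapped without crush and did not at 3 and 4 dpc, where the mean ratio at 3 dpc was 2.04 ± 0.365 in SSRP1KO cells and 3.78 ± 0.239 in NT cells (SD, n = 3 each). With 3 libraries against 3, an exact permutation test cannot go below 0.10, so none is given for this ratio.

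**Figure D3:**
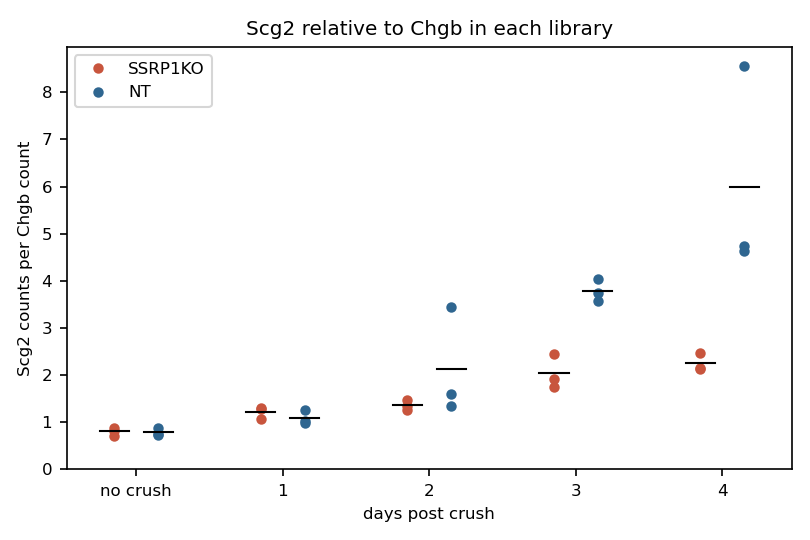
Scg2 counts per Chgb count in each library, by days post crush, with SSRP1KO to the left of NT. Points are libraries and black lines group means; at 4 dpc the SSRP1KO libraries lie between 2.12 and 2.47 and the NT libraries between 4.63 and 8.57.

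Cck, the cholecystokinin precursor (chromosome 9, 121489824 to 121495694, minus strand), was the peptide gene that fell. SSRP1KO libraries held 40.4, 20.1 and 42.0 CPM without crush, 25.1, 28.2 and 30 CPM at 1 dpc, 7.58, 8.61 and 15.5 CPM at 2 dpc, 7.02, 9.95 and 7.14 CPM at 3 dpc, and 8.82, 6.93 and 10.8 CPM at 4 dpc. For NT cells the values were 38.3, 38.2 and 42.9 CPM without crush, 19.1, 21.7 and 24.8 CPM at 1 dpc, 5.6, 3.69 and 2.11 CPM at 2 dpc, 2.41, 2.26 and 4.71 CPM at 3 dpc, and 0.749, 4.44 and 3.41 CPM at 4 dpc. From 2 dpc on, every crushed library lay below every uncrushed one of its sgRNA group, and every NT library below every SSRP1KO library of the same day. At 4 dpc Cck was 3.86-fold lower than without crush in SSRP1KO cells (log2 -1.95 ± 0.38, adjusted p = 0.000593) and 13.1-fold lower in NT cells (log2 -3.71 ± 0.42, adjusted p = 5.35e-08). The fall at 2 dpc in SSRP1KO cells (adjusted p = 0.00301) was not called with the sex score as covariate (adjusted p = 0.0992) or when only those 2 groups were fitted (0.0715).

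Ssrp1 targeting went with lower Scg2, Adcyap1 and Penk and higher Cck and Tac1. Averaged over the 5 times, Scg2 was 1.69-fold lower in SSRP1KO than in NT cells (log2 -0.76 ± 0.12, adjusted p = 6.23e-05), with the same sign at 5 of 5 times. Penk was 1.5-fold lower (log2 -0.58 ± 0.1, adjusted p = 0.000249) and Adcyap1 1.39-fold lower (log2 -0.48 ± 0.09, adjusted p = 0.00056), each at 4 of 5 times. Cck was 1.85-fold higher (log2 0.89 ± 0.17, adjusted p = 0.00053) and Tac1 1.32-fold higher (log2 0.41 ± 0.12, adjusted p = 0.0143), also at 4 of 5 times. So 5 of 10 genes passed, where 19.8% of all genes did, 9.64% higher and 10.2% lower. The same 5 passed with the sex score as covariate, and without the 3 libraries in doubt these 5 and Npy passed. Ganglion cell marker sums were lower in SSRP1KO than in NT libraries, with no overlap, at every time except 2 dpc, where the medians were 7242 and 7239.8 CPM. Amacrine marker sums were higher in SSRP1KO libraries with no overlap without crush and at 1 dpc, while at 2 dpc they ran the other way, at a median of 711 CPM in SSRP1KO and 777 CPM in NT libraries. The part of these sums in the differences was not tested.

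By time, the number of members that passed was highest at 4 dpc, though some differences were of like size earlier, as for Cck, at log2 1.43 at 2 dpc and 1.54 at 4 dpc. Without crush, Penk was lower in SSRP1KO cells, at 39.0 ± 7.56 CPM, against 77.5 ± 17.5 CPM in NT cells (SD, n = 3 each; log2 -0.99 ± 0.23, adjusted p = 0.0184), and no other member passed (3.91% of all genes did). That Penk call was lost with the sex score as covariate (adjusted p = 0.118), with only those groups fitted (0.12), and without NT no crush replicate 3 (0.104), SSRP1KO no crush replicate 1 (0.0707) or SSRP1KO no crush replicate 2 (0.0615). At 1 and 2 dpc 0 of 10 members passed in edgeR's test, where 0.018% and 0.0842% of all genes did. At an unadjusted p under 0.05 there were 2 members at 1 dpc, Npy and Tac1, both higher in SSRP1KO cells, and 2 at 2 dpc, Cck higher and Scg2 lower, where 5.05% and 17.8% of all genes were under it. DESeq2 called 0 and 1.

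At 3 dpc, Adcyap1 was 2.19-fold lower in SSRP1KO cells, at 74.9 ± 8.99 CPM, against 163.7 ± 13.6 CPM in NT cells (SD, n = 3 each; adjusted p = 0.00843), the only member that passed (1.11% of all genes). Without NT 3 dpc replicate 1 its adjusted p was 0.0564. Vgf was at 101 ± 14.8 CPM in SSRP1KO cells and 168 ± 24.6 CPM in NT cells with no overlap of libraries, but did not pass (log2 -0.73, adjusted p = 0.238). Without the 3 libraries in doubt 5 members passed at 3 dpc, Cck higher and Vgf, Scg2, Adcyap1 and Penk lower.

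At 4 dpc, 4 of 10 members passed, where 6.91% of all genes did. Scg2 was 3.07-fold lower in SSRP1KO cells, at 1116 ± 83.5 CPM, against 3423 ± 2014 CPM in NT cells (SD, n = 3 each; log2 -1.62 ± 0.27, adjusted p = 0.000559). Penk was 2.16-fold lower, at 80.6 ± 7.17 CPM in SSRP1KO cells and 174 ± 8.97 CPM in NT cells (log2 -1.11 ± 0.23, adjusted p = 0.00398). The SSRP1KO and NT libraries did not overlap for 6 of the 10 members, Scg2, Penk, Adcyap1, Cck, Gal and Tac1. The share of all genes without overlap is not reported for this contrast. Adcyap1 was 2.1-fold lower, at 108 ± 4.65 CPM in SSRP1KO cells and 226 ± 92.3 CPM in NT cells (adjusted p = 0.00216). Cck was 2.91-fold higher, at 8.84 ± 1.92 CPM in SSRP1KO cells and 2.87 ± 1.91 CPM in NT cells (log2 1.54 ± 0.39, adjusted p = 0.0164). Gal, at 16.3 ± 2.02 CPM in SSRP1KO and 63.5 ± 61.0 CPM in NT cells, missed the threshold (adjusted p = 0.053), and it is the gene with the single high NT library. Without that library, NT 4 dpc replicate 1, 2 members passed, Scg2 at log2 -0.98 (adjusted p = 0.0122) and Penk, while Adcyap1 had an adjusted p of 0.0509 and Cck of 0.0732. Cck was also not called without SSRP1KO 4 dpc replicate 1 (0.0513), without replicate 3 (0.0802), or with only those groups fitted (0.0836).

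**Figure D4:**
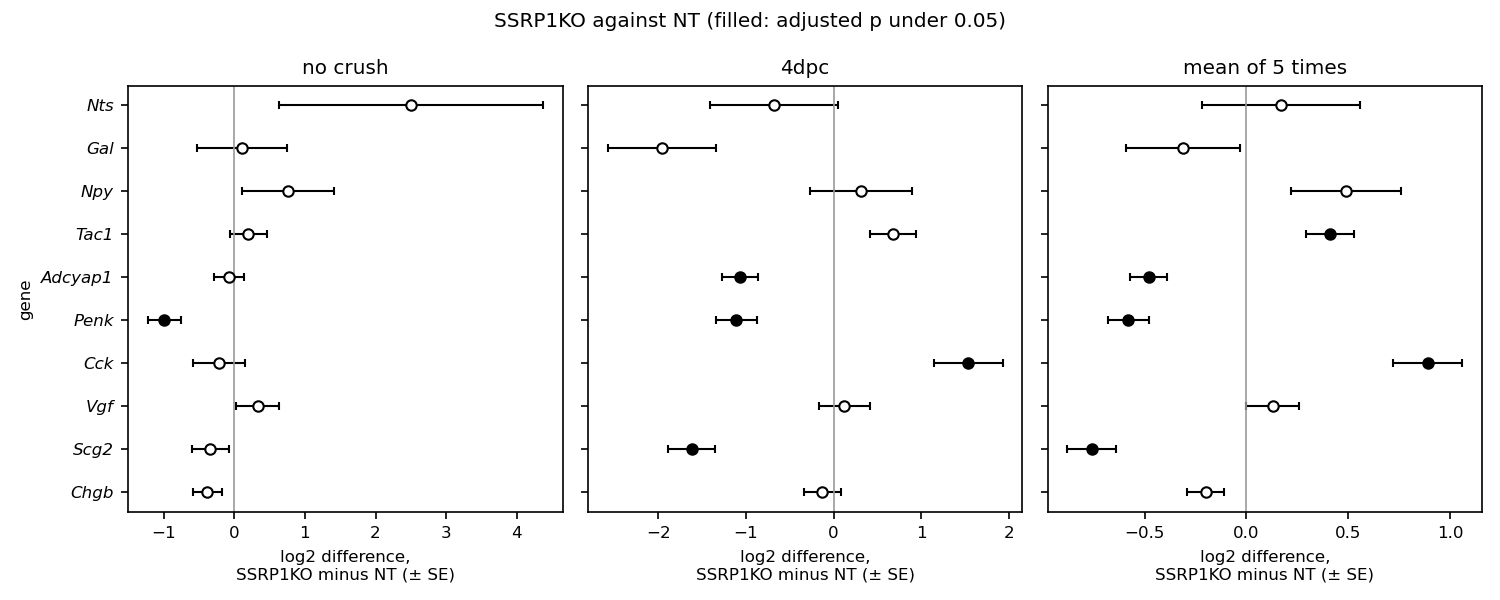
Log2 difference, SSRP1KO minus NT, with its SE, for each gene without crush, at 4 dpc and averaged over 5 times; each panel has its own x axis. Filled points have an adjusted p under 0.05: Penk without crush, Adcyap1, Penk, Cck and Scg2 at 4 dpc, and these and Tac1 in the mean.

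Whether the crush response itself differed between SSRP1KO and NT cells was tested with the 4 interaction terms together. Adcyap1 alone of the 10 passed (adjusted p = 0.0323), where 0.728% of all genes did. Its response in SSRP1KO cells exceeded that in NT cells by log2 0.23 ± 0.29 at 1 dpc, and fell short of it at the later days, with differences of -0.23 ± 0.29 at 2 dpc, -1.06 ± 0.29 at 3 dpc and -1.0 ± 0.29 at 4 dpc. Cck (adjusted p = 0.187), Scg2 (0.193) and Penk (0.161) did not pass, so their different sizes of response are not shown to differ in the main test. The Adcyap1 call was lost with the sex score as covariate (adjusted p = 0.0611) and in 15 of the fits that leave out 1 library (0.0536 to 0.073). Without the 3 libraries in doubt 6 members passed, Nts, Gal, Vgf, Scg2, Adcyap1 and Penk. Without SSRP1KO 2 dpc replicate 5 alone, Vgf, Adcyap1 and Penk passed. In DESeq2 Cck and Adcyap1 passed.

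The genes whose log2 CPM was most like that of each member over the 30 libraries were looked for among 10409 genes with a mean of at least 5 CPM. These Pearson values describe libraries that share sgRNA groups and times. Vgf was closest to Cdsn (r = 0.974) and Colec10 (0.961), and Nts to Colec10 (0.954) and Pde1b (0.949). Cck was closest to Slc6a11, a GABA transporter gene (0.945), and to the histamine receptor gene Hrh3 (0.938). Adcyap1 was closest to the stress gene Gadd45a (0.942) and to Syt4, a synaptotagmin of dense-core vesicles (0.938), and Scg2 to Rtn4, the Nogo gene (0.939), and Stam (0.93). Penk was closest to Hipk4 (0.926) and Vstm5 (0.917). Chgb was closest to the neuronal splicing gene Rbfox3 (0.907) and to Tox (0.881), and Tac1 to the immediate early gene Egr1 (0.904) and to Plat (0.89). Gal was closest to Cstb (0.893) and Glrx (0.878), and Npy had the weakest likeness, to Rnf122 (0.84) and Mfge8 (0.838). Among the members, Nts and Vgf were most alike (0.92), Cck ran against Adcyap1 (-0.91), and Tac1 and Penk had 0.03.

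The rest of the peptide pathway did not move as a block, and each list below stands against 13.1% of all genes called at 4 dpc in SSRP1KO cells, 27.2% in NT cells and 19.8% in the mean difference. Of 45 other neuropeptide precursor genes, 31 were tested. At 4 dpc 4 rose and 3 fell in SSRP1KO cells, with a median log2 change of 0.99, and 4 rose and 3 fell in NT cells, with a median of 0.14, against 0.01 and 0.07 over all genes. Galp, the galanin-like peptide gene, was at 0.684 ± 0.297 CPM at 4 dpc in SSRP1KO cells, at least 12.9-fold higher than the floor of 3 counts over the uncrushed group, whose libraries were all at 0 (adjusted p = 0.00429). In NT cells it was at 0.669 ± 0.152 CPM, at least 16.0-fold higher than the floor of the NT uncrushed group, also all at 0 (adjusted p = 0.00135). The urocortin gene Ucn rose in SSRP1KO cells to 1.24 ± 0.336 CPM, at least 23.4-fold higher than its floor (adjusted p = 0.00578), and in NT cells to 1.44 ± 0.635 CPM, at least 34.5-fold higher (adjusted p = 0.00155). The corticotropin-releasing hormone gene Crh was at 1.53 ± 0.18 CPM at 4 dpc, against 0.104 ± 0.0379 CPM without crush, in SSRP1KO cells (adjusted p = 0.0223). In NT cells it was at 10.9 ± 11.4 CPM at 4 dpc, against 0.371 ± 0.308 CPM without crush (adjusted p = 0.000785).

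Among precursors that fell, Nxph1, for the secreted protein neurexophilin, was at 8.0 ± 0.279 CPM at 4 dpc, against 16.9 ± 2.83 CPM without crush, in SSRP1KO cells (adjusted p = 0.00326). It was at 8.8 ± 1.15 CPM at 4 dpc, against 20.7 ± 2.42 CPM without crush, in NT cells (adjusted p = 0.00039). The neurokinin B gene Tac2 was at 7.46 ± 1.17 CPM at 4 dpc in SSRP1KO cells (adjusted p = 0.0134), against 10.5, 18 and 120.2 CPM without crush, so 1 uncrushed library sets most of the fold. In NT cells Tac2 was at 5.63 ± 0.595 CPM at 4 dpc, against 3.03 ± 2.58 CPM without crush, and did not pass (adjusted p = 0.411). Cartpt, a marker of direction-selective ganglion cells, was at log2 0.03 in SSRP1KO cells (adjusted p = 0.965) and fell in NT cells, at 120.1 ± 26.7 CPM at 4 dpc against 278 ± 105 CPM without crush (adjusted p = 0.00175). In the mean over 5 times, 6 of 31 were higher in SSRP1KO than in NT cells and 0 lower, where 9.64% of all genes were higher and 10.2% lower. They were led by the growth hormone-releasing hormone gene Ghrh (log2 1.34 ± 0.27, adjusted p = 0.000887) and the atrial peptide gene Nppa (log2 1.26 ± 0.26, adjusted p = 0.000952).

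The other granins and granule proteins, 6 genes, had 1 higher and 2 lower at 4 dpc in SSRP1KO cells and 1 higher and 2 lower in NT cells. Chga, chromogranin A, fell like Chgb, at 73.0 ± 5.67 CPM against 107 ± 17.6 CPM without crush in SSRP1KO cells (adjusted p = 0.018), and at 44.6 ± 5.15 CPM against 148 ± 6.35 CPM in NT cells (adjusted p = 2.91e-09). Scg3 rose in SSRP1KO cells (log2 0.68, adjusted p = 0.00146) and was at log2 0.1 in NT cells (adjusted p = 0.679). Nucb2, the nesfatin precursor, was at log2 0.53 in SSRP1KO cells (adjusted p = 0.247) and rose in NT cells (log2 1.03, adjusted p = 0.00635). Gnas, whose locus also encodes a granin-like protein, fell in SSRP1KO cells (log2 -0.61, adjusted p = 0.0124) and was at log2 -0.41 in NT cells (adjusted p = 0.0732). Pcsk1n, an inhibitor of a prohormone convertase, was at log2 -0.15 in SSRP1KO cells (adjusted p = 0.825) and fell in NT cells (log2 -0.99, adjusted p = 0.0132). For the genes of these lists, whether a change differed between SSRP1KO and NT cells is not reported. In the mean over 5 times Scg5, a chaperone of prohormone convertase 2, was lower in SSRP1KO than in NT cells (log2 -0.3, adjusted p = 0.027), as 1 of 6.

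Of 11 processing enzyme genes, 3 rose and 1 fell at 4 dpc in SSRP1KO cells, where 13.1% of all genes passed, and 3 rose and 1 fell in NT cells, where 27.2% did. Cpe, carboxypeptidase E, was at 1708 ± 119 CPM at 4 dpc against 771 ± 110 CPM without crush in SSRP1KO cells (adjusted p = 0.00218), and at 4213.5 ± 2531 CPM against 1011 ± 57.0 CPM in NT cells (adjusted p = 4.41e-07). Pcsk2, prohormone convertase 2, fell in both, at 55.2 ± 3.58 CPM against 99.0 ± 9.57 CPM in SSRP1KO cells (adjusted p = 0.00643) and 59.7 ± 3.79 CPM against 148 ± 17.9 CPM in NT cells (adjusted p = 2.04e-05). Ctsl, a cathepsin that also acts on prohormones, rose in both (log2 1.21 in SSRP1KO and 0.92 in NT cells, adjusted p = 8.86e-05 and 0.000799). So did Qpct, which closes the N-terminus of peptides such as neurotensin (log2 1.35 in SSRP1KO and 3.07 in NT cells, adjusted p = 0.0444 and 9.24e-06). NT 4 dpc replicate 1 was highest of its group for Qpct (46.3 CPM, against 16.8 and 21.4 CPM). It was also highest for Cpe (7122 CPM, against 3000 and 2518.5 CPM), and lowest for Ctsl (465 CPM, against 541 and 498 CPM). In the mean over 5 times 3 of 11 were lower in SSRP1KO than in NT cells, against 10.2% of all genes, among them Cpe (log2 -0.59 ± 0.11, adjusted p = 0.000502) and Pcsk2 (log2 -0.28 ± 0.09, adjusted p = 0.0371).

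Of 18 tested genes of dense-core vesicle formation and release, 3 rose and 6 fell at 4 dpc in SSRP1KO cells and 3 rose and 6 fell in NT cells. Syt4 rose (log2 1.39 in SSRP1KO and 1.78 in NT cells, adjusted p = 5.22e-06 and 2.51e-08), and so did Ptprn, the vesicle membrane protein IA-2 (log2 0.94 and 1.3, adjusted p = 5.67e-05 and 1.09e-07). Both were highest of the group in NT 4 dpc replicate 1. Syt4 was at 4628 CPM there, against 2823 and 2491.5 CPM, and Ptprn at 703 CPM, against 572 and 564 CPM. Rph3a, a Rab3 effector, fell (log2 -1.43 in SSRP1KO and -2.28 in NT cells, adjusted p = 4.26e-08 and 2.22e-12). Rab27a also fell in both (log2 -1.34 in SSRP1KO and -1.18 in NT cells, adjusted p = 0.00288 and 0.00444), as did Ptprn2, the relative of Ptprn (log2 -0.7 and -1.08, adjusted p = 0.00409 and 9.8e-06). In the mean over 5 times 6 of 18 were lower in SSRP1KO cells and 0 higher, against 10.2% and 9.64% of all genes, led by Syt4 (log2 -0.49 ± 0.08, adjusted p = 0.000139) and Ccdc186 (log2 -0.34 ± 0.07, adjusted p = 0.000613).

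Among 19 tested receptor genes for the members' peptides, 1 rose and 5 fell at 4 dpc in SSRP1KO cells, and 1 rose and 6 fell in NT cells. Cckbr, a receptor for cholecystokinin and gastrin, was at 6.99 ± 0.911 CPM at 4 dpc against 0.321 ± 0.453 CPM without crush in SSRP1KO cells (adjusted p = 0.00257), and at 14.4 ± 4.2 CPM against 0.29 ± 0.232 CPM in NT cells (adjusted p = 0.000111). So the receptor gene was higher on the day when Cck itself was lower. Sort1, the sorting receptor that binds neurotensin, fell in both (log2 -1.1 in SSRP1KO and -1.62 in NT cells, adjusted p = 1.12e-06 and 2.79e-10). The PACAP receptor gene Vipr2 also fell in both (log2 -0.99 in SSRP1KO and -1.41 in NT cells, adjusted p = 0.000965 and 4.05e-06). Npy1r was at log2 -0.71 in SSRP1KO cells (adjusted p = 0.135) and fell in NT cells (log2 -2.92, adjusted p = 5.73e-08). In the mean over 5 times 5 of 19 were higher in SSRP1KO than in NT cells and 0 lower, against 9.64% and 10.2% of all genes, led by Npy1r (log2 0.93 ± 0.14, adjusted p = 3.44e-05) and Npy4r (log2 2.84 ± 0.73, adjusted p = 0.00761), the second at a mean of only 0.393 CPM in SSRP1KO and 0.173 CPM in NT cells.

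**Figure D5:**
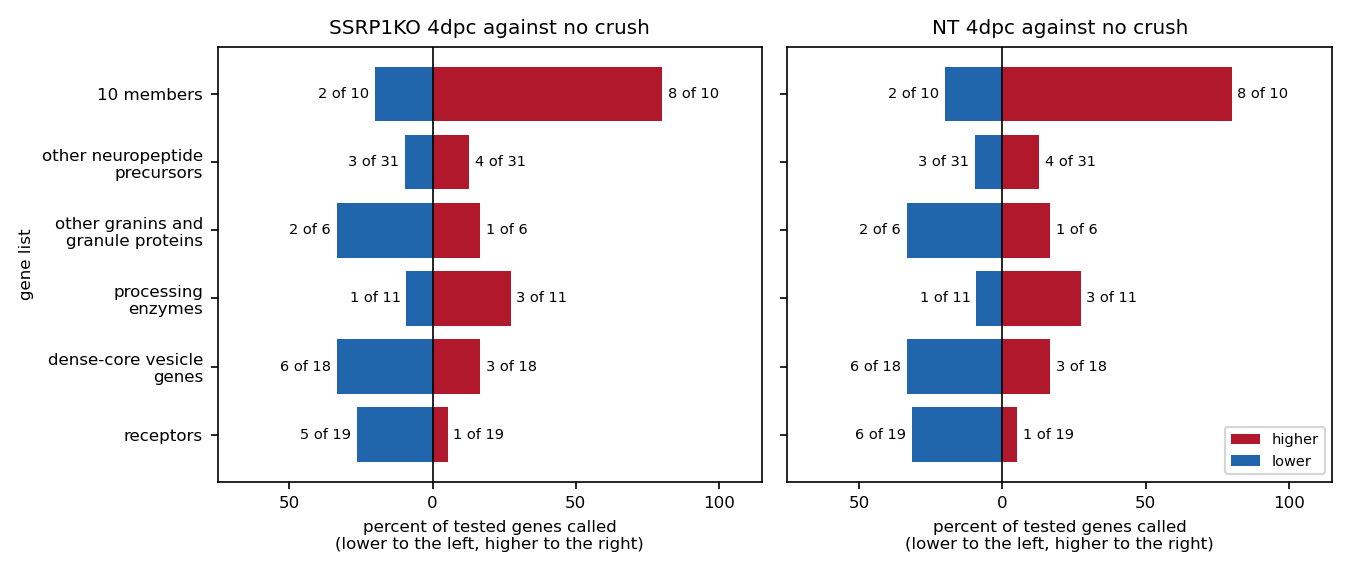
Percent of the tested genes of each list that were called higher (right) or lower (left) at 4 dpc against no crush, in SSRP1KO cells on the left and NT cells on the right, with the counts beside the bars. All 10 members are called in both, against 7 of 31 other neuropeptide precursors in each. Members and lists were chosen with earlier results of these data known.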

How the data were processed

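RNA-seq counts of 30 libraries of sorted mouse retinal cells were used. The authors deposited raw counts as whole numbers, with 1 row for each gene symbol, and per the submitters' processing notes the reads were handled with bcl2fastq 2.17, STAR and HTSeq on GRCm38 (mm10). Not given in the sources used here are the tools' roles, the annotation counted on, strandedness and the treatment of multiply mapped reads, so reads of overlapping or antisense genes could not be separated. A second deposited table, of repeat intervals, was not used here. The 27 symbols that a spreadsheet had turned into dates were left out (at most 0.275% of a library's counts).

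From the counts, edgeR 4.0.16 (R 4.3.3) was run with TMM scaling, its default filter by group, 1 coefficient for each of 10 groups and the quasi-likelihood test. All tests are two-sided, with Benjamini-Hochberg adjustment over 16621 genes in each of 15 comparisons and a threshold of 0.05. The interaction was a joint test of 4 terms. The script was tested on simulated data. No 2 replicates agreed within sampling noise (smallest chi-square per degree of freedom 11.5). Groups and times came from the sample titles.

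The members, gene lists and tests were chosen with earlier results of these data known. Named list genes are the 2 with the smallest adjusted p in each direction among those that passed at 4 dpc in either sgRNA group or in the mean difference, and the 2 genes most like each member are named. Alternatives were DESeq2 1.42.0, RLE scaling, other filters, a replicate block, a sex score, only the groups compared, and leaving out libraries. The sex score is the mean log2 CPM of 4 Y-linked genes minus that of Xist. Promoters came from RefSeq.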

Additional observations from a re-analysis of the deposited data

Results flagged for a closer look

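Adcyap1 was the member whose crush response differed between SSRP1KO and NT cells in the test of the difference itself (edgeR's quasi-likelihood F-test of 4 interaction terms, adjusted p = 0.0323). Its level at 4 dpc was 108 ± 4.65 CPM in SSRP1KO cells and 226 ± 92.3 CPM in NT cells (SD, n = 3 each), while without crush it was 35.7 ± 10.6 CPM in SSRP1KO cells and 37.5 ± 6.22 CPM in NT cells. The NT mean at 4 dpc holds 1 library at 332 CPM, beside 164 and 182 CPM. The call was lost with the sex score as covariate (adjusted p = 0.0611) and in 15 of the fits that leave out 1 library (0.0536 to 0.073), and was kept without that high library.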

How the results depend on the processing

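Of 65 calls of the members over the 15 comparisons, 47 stayed past the threshold with the same sign under every alternative. With RLE scaling, either other filter on low counts, or DESeq2, no count of called members moved by over 1.5 times, except with DESeq2 NT 1 dpc (2), the SSRP1KO to NT contrast at 2 dpc (1) and 3 dpc (2) and the difference between crush responses (2). With only the groups compared, the counts were 4 in NT 1 dpc, 2 in SSRP1KO 2 dpc and, between SSRP1KO and NT cells, 0 with no crush, 2 at 1 dpc and 5 at 3 dpc. That fit gave no value for Nts in SSRP1KO 2 dpc, since its filter dropped the gene, so this call is not among the 47.

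With the sex score as covariate the counts were 1 in SSRP1KO 1 dpc, 3 in SSRP1KO 2 dpc, 0 for SSRP1KO against NT without crush and 0 for the difference between crush responses. Uncalled values that changed sign with it were Chgb in SSRP1KO 1 dpc (log2 -0.13) and 2 dpc (-0.24), and, between SSRP1KO and NT cells, Adcyap1 with no crush (0.14) and at 1 dpc (-0.04) and Nts at 2 dpc (0.67).

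Without SSRP1KO 2 dpc replicate 5 the counts were 3 in NT 1 dpc, 4 in SSRP1KO 1 dpc, 4 for SSRP1KO against NT at 3 dpc and 3 for the difference between crush responses, and Nts (0.36), Npy (0.16) and Tac1 (0.11) changed sign, uncalled, for SSRP1KO against NT at 2 dpc. Without the 3 libraries in doubt they were 4, 4, 5 and 6 for the same comparisons. Sign changes were then Chgb in NT 2 dpc (0.07) and, for SSRP1KO against NT, Adcyap1 without crush (0.01), Nts at 2 dpc (1.43) and Npy at 2 dpc (0.04), all uncalled.

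The sample titles do not say whether the replicate numbers pair the samples, and no sign of pairing was seen. Of 117 same-numbered pairs of libraries from different groups, 7 correlated above 0.1 in their deviations from group means. Of 30 libraries, 2 correlated best with their own number. These correlations cannot decide whether same-numbered libraries were handled together. The SSRP1KO 2 dpc libraries are numbered 3, 4 and 5, and no other group has a replicate 4 or 5. The block therefore fitted replicates 4 and 5 exactly, and estimated that group from replicate 3 alone. It thus also set aside replicate 5, the library that stood apart. With the replicate block the counts were 3 in NT 1 dpc, 4 in SSRP1KO 1 dpc and 2 for SSRP1KO against NT at 3 dpc. Under the block the uncalled SSRP1KO against NT values at 2 dpc of Nts (0.48), Tac1 (0.03), Adcyap1 (0.00) and Chgb (0.12) changed sign.

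Leaving out 1 library at a time, the count ran between 1 and 2 in SSRP1KO 1 dpc. Set against NT cells, SSRP1KO cells had between 0 and 1 without crush, at 2 dpc and at 3 dpc, and between 2 and 5 at 4 dpc. For the difference between crush responses it ran between 0 and 3. Uncalled values changed sign in these ranges. For SSRP1KO against NT without crush they were Adcyap1 (-0.34 to 0.08), Cck (-0.4 to 0.05), Gal (-0.13 to 0.48) and Tac1 (-0.02 to 0.53). At 1 dpc it was Nts (-0.2 to 0.81), and at 2 dpc Gal (-0.22 to 0.89), Npy (-1.09 to 0.16), Nts (-0.75 to 0.88), Penk (-0.17 to 0.37), Tac1 (-0.32 to 0.11) and Vgf (-0.03 to 0.78). At 4 dpc they were Chgb (-0.23 to 0.08), Nts (-0.99 to 0.09) and Vgf (-0.02 to 0.24), and in the mean Nts (-0.14 to 0.55). Against no crush they were Chgb in NT 2 dpc (-0.17 to 0.11) and SSRP1KO 2 dpc (-0.16 to 0.33) and Npy in SSRP1KO 2 dpc (-0.04 to 1.21).

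The share of all genes called moved too. For SSRP1KO against NT without crush, 650 genes were called in the main test, 8 with only those groups, 19 with the sex score and 2418 without the 3 libraries in doubt. At 3 dpc 184 were called, and 1054 without those libraries, and for the difference between crush responses 121, and 1104 without them. The cause of these changes was not tested. The smallest counts, those of Nts and Npy without crush and in SSRP1KO 2 dpc replicate 5, limit the precision of their folds.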
